A study of Drosophila melanogaster with 40 samples.

Results

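The mRNAs of mio and Wdr24, which encode a pair of subunits of the GATOR2 complex, were followed through polysome gradients of early Drosophila melanogaster embryos. They are 2 of the 6524 transcripts with a level on the arrays, chosen by transcript identifier with earlier results of these data known. They are FBtr0077835 for mio (CG7074, on chromosome arm 2L) and FBtr0085543 for Wdr24 (CG7609, on chromosome arm 3R). RefSeq lists 1 transcript for mio and 2 for Wdr24, and each gene had 1 value per array. Embryos were collected 0 to 2 h after egg laying, lysed and sedimented through sucrose, and each gradient was divided into 4 pools. The design asks which mRNAs gain or lose ribosomes when mothers lack functional Smaug, a repressor of translation that binds RNA. The groups were 3 gradients of embryos from mothers homozygous for smaug1, called smaug mutant here, and 3 gradients of embryos from W1118 Wild Type mothers. A further 2 gradients were run with puromycin-treated and 2 with cycloheximide-treated lysate, and all 4 of these were of smaug1 embryos as well. Per the methods of the study, the lysis buffer of the smaug mutant and wild-type gradients also held cycloheximide. Embryos this young carry mostly maternal mRNA, and each gradient holds RNA of many embryos, so fewer embryos holding an mRNA cannot be told apart from less of it per embryo. The labels call replicates of a group biological replicates.

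GATOR2 is a complex of WD-repeat proteins, among them Mio, Wdr24, Wdr59, Nup44A and Sec13, that sits upstream of the kinase complex TORC1. It holds back GATOR1, made of Iml1, Nprl2 and Nprl3, which turns off the Rag GTPases when amino acids are scarce. GATOR2 thereby keeps TORC1 active, and TORC1 in turn promotes translation through S6k and through Thor, the fly 4E-BP. In Drosophila ovaries mio is needed for the oocyte to keep its fate and to grow, and Wdr24 is likewise needed for TORC1 activity there.

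Sedimentation separates mRNAs by the ribosomes they carry. Pool 1 was the top 4 mL of the gradient, where mRNA free of ribosomes stays. Pool 2 was the next 2 mL, where per the study free and polysome-bound mRNA are mixed. Pools 3 and 4 were 3 mL each, with the heaviest polysomes and the pellet in pool 4. The level of a transcript in a pool is a log2 value, scaled with foreign RNA added to every pool. The translation index (TI) takes the average log2 level of pools 3 and 4 and subtracts that of pool 1. A TI above 0 thus means more signal in the polysome pools than at the top.

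All 40 arrays, 4 for each of the 10 gradients, gave a level for both transcripts. Array medians ranged between 9.98 and 14.1, and the median TI over all transcripts lay between -0.90 and 1.77 in the 8 gradients without puromycin and at -3.06 and -3.12 in the puromycin gradients. The highest of these medians was that of smaug mutant replicate 3. Of the 24 genes listed for the GATOR and TORC1 pathway, 22 were in the gene table and 2 matched a transcript of the arrays, which are mio and Wdr24 themselves. None of the 15 listed marker genes of maternal, zygotic or somatic RNA matched one, smg among them, so that neither the genotype nor the stage was checked against a marker here. The table named 8 transcripts in all.

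mio mRNA sat in the polysome pools of every gradient without puromycin. In smaug mutant gradients its levels in pools 1, 2, 3 and 4 were 7.83, 8.82, 11.78 and 10.69 in replicate 1. They were 10.56, 8.50, 13.00 and 10.47 in replicate 2, and 6.21, 9.32, 13.12 and 12.31 in replicate 3. The level was highest in pool 3 in each of the 3 smaug mutant gradients, and replicate 2 differed from the other two by its high level in pool 1. In wild-type gradients the levels in the same order were 8.93, 8.99, 12.17 and 12.00 in replicate 1. They were 6.96, 7.09, 11.19 and 11.61 in replicate 2, and 8.02, 10.43, 12.72 and 12.17 in replicate 3. Pools 3 and 4 lay close together in wild type, far above pool 1. Over the 8 gradients without puromycin, the highest level was in pool 3 in 5 and in pool 4 in 3, and pool 1 was the lowest in 7.

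The position of mio was also far from that of most transcripts. Relative to the median of the same array, its pool 1 level lay between -5.89 and -1.22 over the 10 gradients, whereas its pool 3 level lay between -0.15 and 0.43 in the 8 gradients without puromycin. mio thus gained on the other transcripts between the top of the gradient and pool 3, and since such differences also carry the brightness of a probe, only the gain between pools is read here. It was among the 25% of transcripts with the lowest mean level. Its pool 1 levels were 6.09 to 10.56 in the 8 gradients without puromycin, and the TIs below rest on that weak signal. mio had a TI of 3.41, 1.17 and 6.51 in smaug mutant replicates 1 to 3, and 3.15, 4.44 and 4.42 in wild-type replicates 1 to 3. A TI of 3.41 corresponds to 10.6-fold more signal in pools 3 and 4, taken as their geometric mean, than in pool 1. Against all 6524 transcripts of the same gradient, these values stood at percentiles 96.8, 80.9 and 97.8 in smaug mutants and 94.1, 99.4 and 99.1 in wild type. Only smaug mutant replicate 2 fell below the percentiles of the others. On the linear scale, pools 3 and 4 held 88.4%, 83.7% and 95.2% of the summed signal of mio in smaug mutant gradients, and 89.7%, 95.4% and 87.4% in wild-type gradients.

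Wdr24 mRNA was spread over all 4 pools and was highest at the top of the gradient in most of them. Its levels in pools 1, 2, 3 and 4 were 12.96, 12.14, 12.51 and 11.99 in smaug mutant replicate 1. They were 13.11, 13.78, 14.64 and 11.53 in replicate 2, and 10.40, 12.24, 13.60 and 12.94 in replicate 3. The smaug mutant gradients thus disagreed among themselves, with the maximum in pool 1 in replicate 1 and in pool 3 in replicates 2 and 3. In wild-type gradients the levels in the same order were 12.92, 12.50, 12.17 and 12.59 in replicate 1. They were 13.23, 11.88, 11.49 and 11.76 in replicate 2, and 14.73, 13.47, 12.68 and 12.73 in replicate 3. All 3 wild-type gradients had the maximum in pool 1 and the minimum in pool 3.

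The TI of Wdr24 ranged from the low end to above the middle of all transcripts. It was -0.72, -0.02 and 2.87 in smaug mutant replicates 1, 2 and 3, and -0.54, -1.60 and -2.02 in wild-type replicates 1, 2 and 3. The corresponding percentiles among all transcripts were 42.4, 54.6 and 70.0 in smaug mutants and 34.5, 30.5 and 6.18 in wild type. Pools 3 and 4 held 44.1%, 55.4% and 76.7% of its summed signal in smaug mutant gradients, and 44.3%, 32.2% and 25.8% in wild-type gradients. The widest spread was among the smaug mutant gradients, and replicate 3 gave the highest share.

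**Figure D1:**
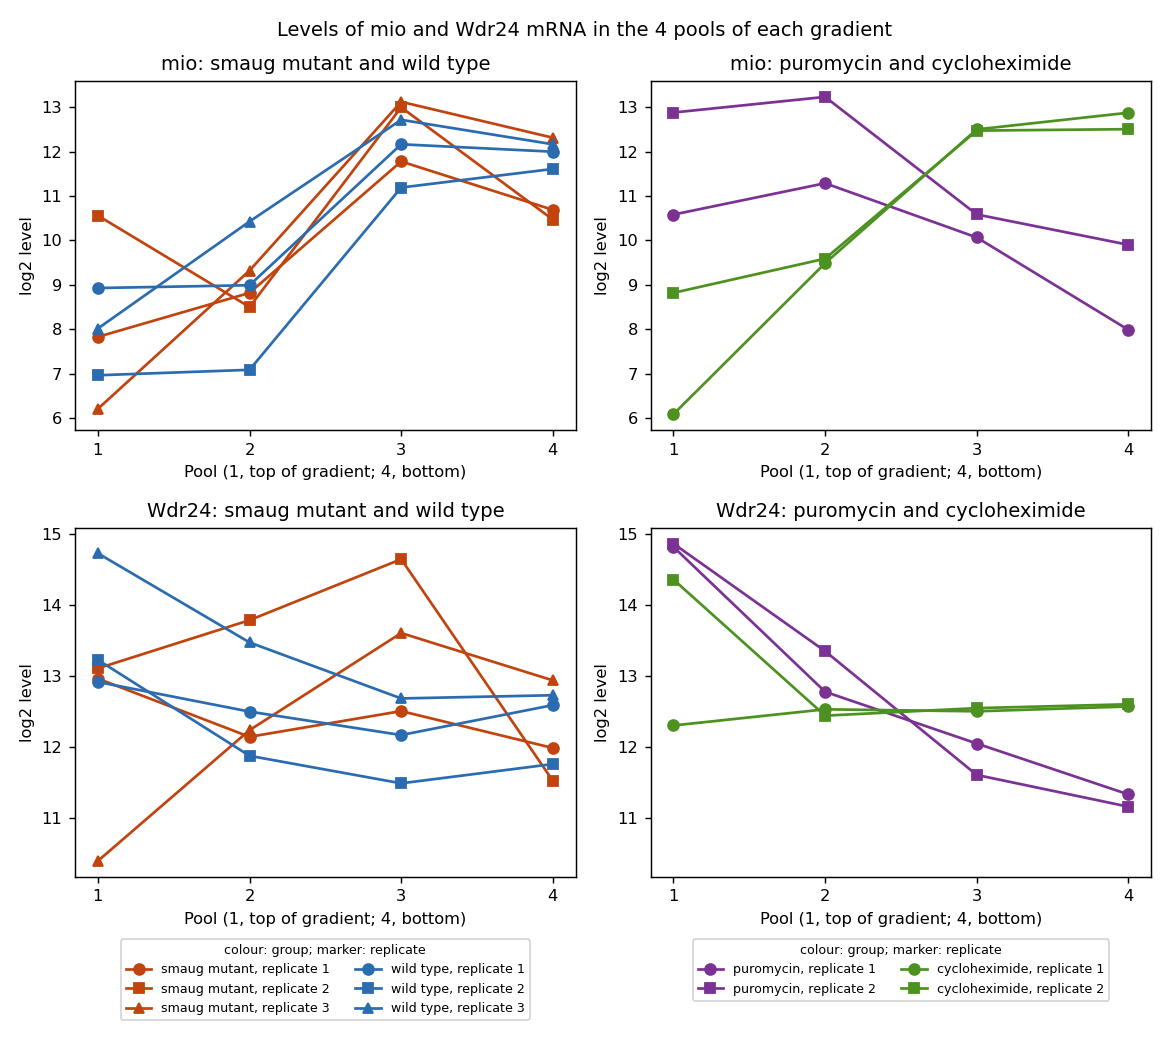
Log2 level (y axis) of mio (top) and Wdr24 (bottom) in pools 1 to 4 (x axis), 1 line per gradient, coloured by group and marked by replicate. mio was highest in pool 3 or pool 4 in each of the 8 gradients without puromycin and peaked in pool 2 in both puromycin gradients, whereas Wdr24 was highest in pool 1 in 7 of 10 gradients.

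**Figure D2:**
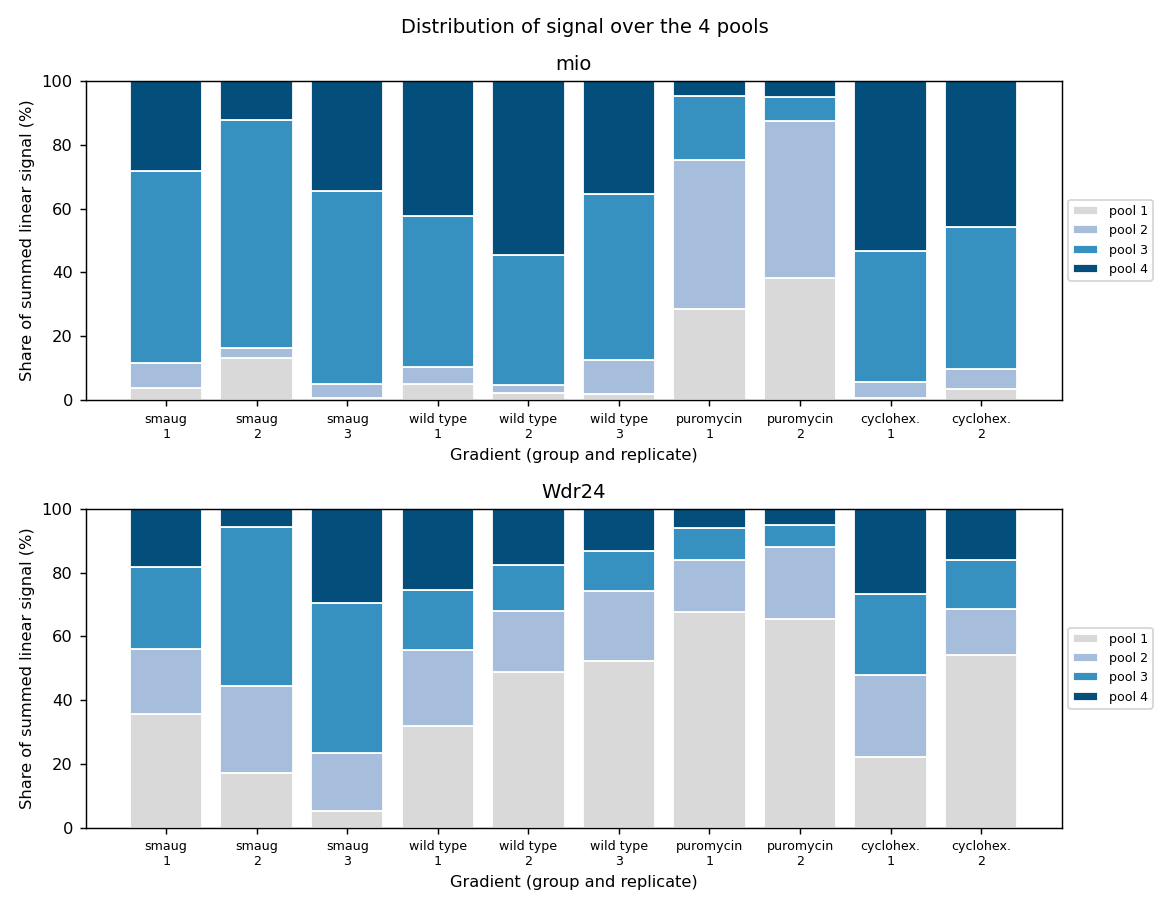
Share of the summed linear signal (%) of mio (top) and Wdr24 (bottom) found in each pool, 1 bar per gradient. Pools 3 and 4 together held 83.7% to 95.4% of mio in the 8 gradients without puromycin, and 24.7% and 12.7% in the 2 puromycin gradients.

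The 2 transcripts were then set against each other within each gradient. An offset of the whole array moves both alike and leaves the difference of their TIs, whereas an error in the slope of its scaling does not. The TI of mio was above that of Wdr24 in 10 of 10 gradients, by 0.84 to 6.44 with a median of 3.91. The difference was 4.12, 1.20 and 3.64 in smaug mutant gradients, and 3.69, 6.04 and 6.44 in wild-type gradients. Its mean was 2.99 ± 1.57 in smaug mutants and 5.39 ± 1.49 in wild type (SD, n = 3 each), and smaug mutant replicate 1 lay above wild-type replicate 1. The genotypes therefore overlapped, and the exact two-sided permutation test of the change of -2.41 gave p = 0.2, where 3 gradients against 3 cannot give less than 0.1. With drugs the difference was 1.57 and 0.84 in puromycin gradients, and 6.37 and 5.45 in cycloheximide gradients, means of 1.20 ± 0.51 with puromycin and 5.91 ± 0.65 with cycloheximide (SD, n = 2 each). The change in this gap was -4.71, with an exact two-sided permutation p of 0.333, the smallest that 2 gradients against 2 can give. The TIs of all transcripts also lay closer together with puromycin (SD 0.98 and 0.80) than with cycloheximide (SD 1.62 and 1.18).

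The first comparison asked whether loss of Smaug moved either mRNA along the gradient. mio had a mean TI of 3.70 ± 2.68 in smaug mutants and 4.01 ± 0.74 in wild type (SD, n = 3 each). The change of -0.31 had a standard error of 1.11 and a 95% confidence interval of -2.55 to 1.93 (limma, Benjamini-Hochberg adjusted p = 0.974). The groups overlapped, and the median change over all transcripts was 0.65. Wdr24 had a mean TI of 0.71 ± 1.90 in smaug mutants and -1.39 ± 0.76 in wild type (SD, n = 3 each). Its change of 2.10 had a standard error of 1.07 and a 95% confidence interval of -0.05 to 4.25 (limma, adjusted p = 0.473), and it was larger than that of 88.0% of transcripts. Smaug mutant replicate 1, at -0.72, lay below wild-type replicate 1, at -0.54, so the groups overlapped for Wdr24 too. Neither mRNA was called, where limma called 0.0613% of all transcripts in either direction, and SAM called neither of them.

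The medians of the gradients themselves differed, so both mRNAs were also set against them. Relative to the median TI of its gradient, Wdr24 stood at -0.25, 0.17 and 1.11 in smaug mutants and at -0.63, -0.70 and -1.69 in wild type. All 3 smaug mutant gradients then lay above all 3 wild-type gradients, which 11.7% of all transcripts also did, with an exact two-sided permutation p of 0.1, the smallest possible. The centred change was 1.35 (limma, adjusted p = 0.356). For mio the centred values overlapped, at 3.88, 1.37 and 4.74 in smaug mutants and 3.06, 5.34 and 4.76 in wild type.

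The dye differed between gradients, since smaug mutant replicate 1 and wild-type replicates 2 and 3 carried Cy5 and the other 3 carried Cy3. Within Cy3 the change of mio was 0.69, and within Cy5 it was -1.03, with 2 gradients against 1 and 1 against 2. Its sign therefore turned with the dye. The change of Wdr24 was 1.96 within Cy3 and 1.09 within Cy5, higher in smaug mutants both times. Without smaug mutant replicate 2 the change of mio was 0.95, and without smaug mutant replicate 3 that of Wdr24 was 1.02 (limma, adjusted p = 0.834 and 0.860).

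**Figure D3:**
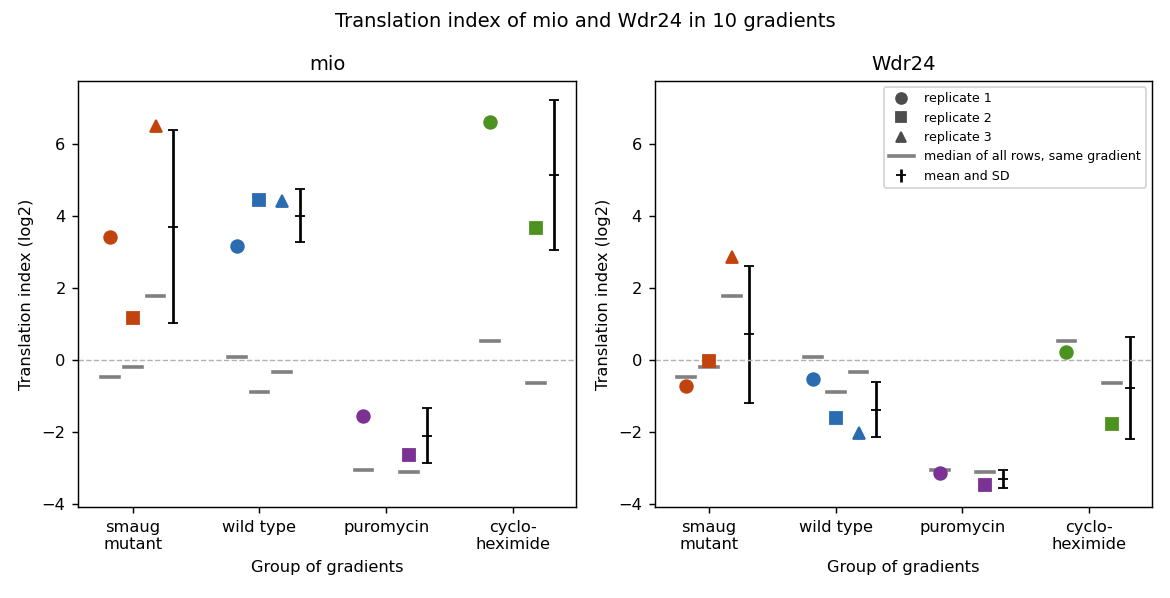
Translation index (log2, y axis) of mio (left) and Wdr24 (right) in the 10 gradients by group, with 1 point per gradient, a grey bar for the median of all transcripts in that gradient, and the group mean with its SD in black. The 2 puromycin gradients lay below 0 and below all others for both mRNAs, and mio lay above the grey bar in 10 of 10 gradients.

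Levels in single pools were examined next, in a fit that took the 4 pools of a gradient as independent arrays. For mio they averaged 8.20 ± 2.20 in smaug mutants and 7.97 ± 0.98 in wild type in pool 1, a change of 0.23 (limma, adjusted p = 0.878). In pool 2 they averaged 8.88 ± 0.41 in smaug mutants and 8.84 ± 1.68 in wild type, a change of 0.05 (limma, adjusted p = 1.00). In pool 3 the means were 12.63 ± 0.74 in smaug mutants and 12.03 ± 0.77 in wild type, a change of 0.61 (limma, adjusted p = 0.874). The groups overlapped in all 4 pools. In pool 4 the means were 11.16 ± 1.01 in smaug mutants and 11.93 ± 0.29 in wild type (SD, n = 3 each throughout), a change of -0.77 (limma, adjusted p = 0.721). limma called 0.0766%, 0.0153%, 0.0766% and 0.092% of all transcripts in pools 1, 2, 3 and 4, and mio was not among them.

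For Wdr24 the levels that differed most between genotypes were those at the top and in pool 3. In pool 1 it averaged 12.16 ± 1.52 in smaug mutants and 13.62 ± 0.97 in wild type (SD, n = 3 each), a change of -1.47 (SE 0.74, limma adjusted p = 0.247). In pool 3 it averaged 13.58 ± 1.07 in smaug mutants and 12.11 ± 0.60 in wild type (SD, n = 3 each), a change of 1.47 (SE 0.74, limma adjusted p = 0.603). Neither passed the threshold, and the groups overlapped in both pools. The changes were 0.11 in pool 2 and -0.21 in pool 4 (limma, adjusted p = 1.00 and 0.916).

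The TI averages pools 3 and 4, so that a shift between them stays hidden in it. The log2 ratio of pool 4 to pool 3 for mio was -1.09, -2.53 and -0.81 in smaug mutant gradients, and -0.17, 0.42 and -0.55 in wild-type gradients. For Wdr24 it was -0.52, -3.12 and -0.67 in smaug mutant gradients, and 0.42, 0.27 and 0.04 in wild-type gradients. For both mRNAs every smaug mutant gradient lay below every wild-type gradient, and smaug mutant replicate 2 was the lowest. Such a separation, with smaug mutants lower, was seen in 46.6% of all transcripts. The mean ratio of mio was lower by a change of -1.37 (SE 0.60), and that of Wdr24 by a change of -1.68 (SE 0.71, limma adjusted p = 0.159 and 0.153), where the median of all transcripts changed by -0.999. limma called 0% of transcripts for this ratio, although before adjustment 7 passed 0.05 as higher and 1975 as lower.

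For the signal summed over the 4 pools neither change passed the threshold. It was 13.28 ± 0.69 for mio in smaug mutants and 13.13 ± 0.60 in wild type on the log2 scale (SD, n = 3 each), a change of 0.15 (limma, adjusted p = 0.996). For Wdr24 it was 14.93 ± 0.64 in smaug mutants and 14.83 ± 0.73 in wild type (SD, n = 3 each), a change of 0.10 (limma, adjusted p = 0.997). limma called 0.0766% of all transcripts for the summed signal.

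Puromycin was used to ask whether the mRNA in the heavy pools was held there by translating ribosomes, since it releases them, whereas cycloheximide arrests them on the mRNA. mio moved out of pools 3 and 4, in large part into pool 2, where free and polysome-bound mRNA are not separated. Its levels in pools 1, 2, 3 and 4 were 10.58, 11.29, 10.07 and 7.99 in puromycin replicate 1 and 12.88, 13.23, 10.59 and 9.90 in puromycin replicate 2. In cycloheximide gradients they were 6.09, 9.49, 12.50 and 12.88 in replicate 1 and 8.82, 9.59, 12.47 and 12.51 in replicate 2. The maximum was thus in pool 2 in both puromycin gradients and in pool 4 in both cycloheximide gradients, and the drugs did not overlap in any pool. Pools 3 and 4 held 24.7% and 12.7% of the summed signal with puromycin, against 94.4% and 90.4% with cycloheximide.

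The TI of mio was -1.56 and -2.64 in puromycin gradients, and 6.60 and 3.67 in cycloheximide gradients. It averaged -2.10 ± 0.76 with puromycin and 5.14 ± 2.07 with cycloheximide (SD, n = 2 each). This change of -7.23 had a standard error of 1.03 and a 95% confidence interval of -9.64 to -4.82 (limma, adjusted p = 0.00173). Most transcripts fell as well: limma called 80.3% of them lower, the drugs did not overlap in that direction in 96.5%, and the median change was -3.00. The change of mio ranked 70 from the lowest of 6524. Its TI stood at percentiles 93.5 and 75.1 with puromycin and at 99.6 and 99.8 with cycloheximide. The TIs of all transcripts had an SD of 0.98 and 0.80 with puromycin and of 1.62 and 1.18 with cycloheximide. How much of the rank came from this narrowing and the high start of mio was not tested. Each lysate had been split between the drugs, and by lysate the change of mio was -8.16 in replicate 1 and -6.31 in replicate 2. Within Cy3 it was -5.23 and within Cy5 it was -9.24, with 1 gradient per drug. Relative to the median TI of the gradient, mio stood at 1.50 and 0.48 with puromycin and at 6.09 and 4.31 with cycloheximide, and its drugs did not overlap in that direction, as was so for 31.9% of all transcripts. The centred change of -4.21 also passed the threshold (limma, adjusted p = 0.0402), where 488 of 6524 transcripts were called lower.

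Wdr24 fell as well, and how far its change differed from that of mio is the change in the gap given above. Its levels in pools 1, 2, 3 and 4 were 14.82, 12.78, 12.05 and 11.33 in puromycin replicate 1 and 14.86, 13.35, 11.61 and 11.16 in puromycin replicate 2. In cycloheximide gradients they were 12.30, 12.53, 12.50 and 12.57 in replicate 1 and 14.36, 12.44, 12.55 and 12.60 in replicate 2. The puromycin levels declined steadily down the gradient, and the cycloheximide gradients were alike in pools 2, 3 and 4 and differed in pool 1. The TI was -3.12 and -3.48 in puromycin gradients, and 0.23 and -1.78 in cycloheximide gradients. It averaged -3.30 ± 0.25 with puromycin and -0.77 ± 1.42 with cycloheximide (SD, n = 2 each). This change of -2.53 had a standard error of 0.83 and a 95% confidence interval of -4.47 to -0.59 (limma, adjusted p = 0.0261). The groups did not overlap.

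This fall of Wdr24 was about that of the whole gradient, as 62.2% of transcripts changed to a lower value than it did. Relative to the median TI it stood at -0.07 and -0.36 with puromycin and at -0.28 and -1.14 with cycloheximide, which overlapped, and the centred change was 0.50 (limma, adjusted p = 0.479). By lysate the uncentred change was -3.36 in replicate 1 and -1.70 in replicate 2, and by dye it was -1.34 within Cy3 and -3.71 within Cy5. The call was lost without puromycin replicate 1 (limma, adjusted p = 0.117) and without puromycin replicate 2 (limma, adjusted p = 0.173).

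**Figure D4:**
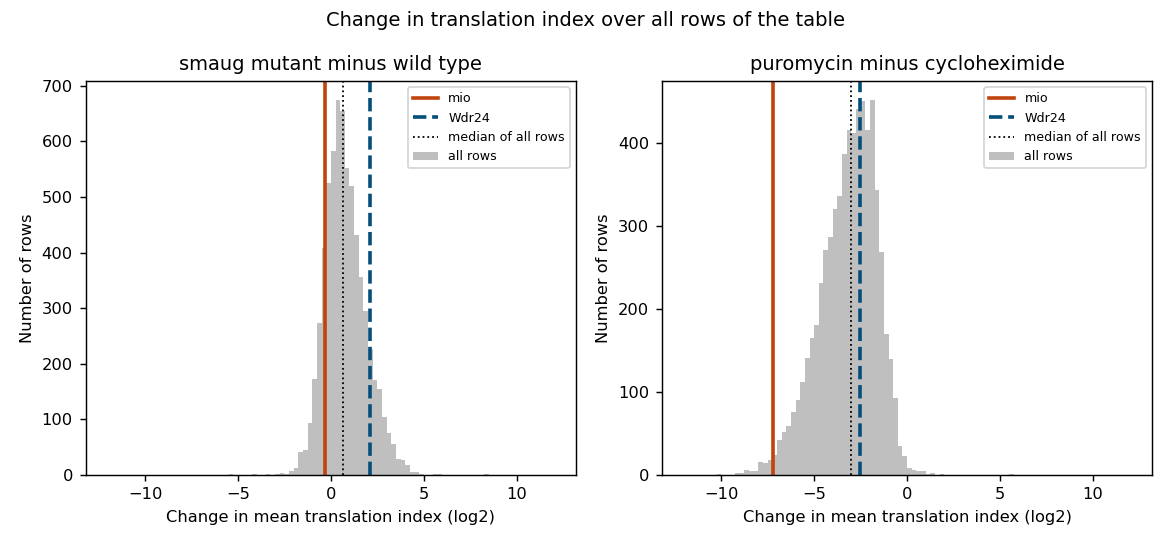
Number of transcripts (y axis) by change in mean translation index (log2, x axis) for smaug mutant minus wild type (left) and puromycin minus cycloheximide (right), with lines for mio, Wdr24 and the median of all transcripts. With puromycin mio changed by -7.23, in the far lower tail, and Wdr24 by -2.53, near the median of -3.00.

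By pool, mio rose at the top and fell at the bottom with puromycin. In pool 1 it averaged 11.73 ± 1.62 with puromycin and 7.45 ± 1.93 with cycloheximide (SD, n = 2 each), a rise of 4.28 (SE 0.96, limma adjusted p = 0.00677), larger than the change of 98.9% of transcripts. limma called 37.2% of all transcripts higher there. The fit took the pools of a gradient as independent, and with pool 1 fitted alone the standard error was 1.21. By dye the rise of mio in pool 1 was 1.76 within Cy3 and 6.79 within Cy5, with 1 gradient per drug. In pool 4 it averaged 8.94 ± 1.35 with puromycin and 12.69 ± 0.26 with cycloheximide (SD, n = 2 each), a change of -3.75 (limma, adjusted p = 0.00297), where 92.8% were called lower. The rise in pool 1 was not past the threshold with pool 1 fitted alone, with a spread not shared over the pools (limma, adjusted p = 0.109), without cycloheximide replicate 1, at 2.91 (limma, adjusted p = 0.246), or without puromycin replicate 2, at 3.13 (limma, adjusted p = 0.0634). The fall in pool 4 was not past it with each array centred on its median, at -1.41 (limma, adjusted p = 0.114).

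In the middle of the gradient mio averaged 12.26 ± 1.37 with puromycin and 9.54 ± 0.07 with cycloheximide in pool 2 (SD, n = 2 each), a change of 2.72 (limma, adjusted p = 0.0622, and 0.0161 with the shared lysate as a block). limma called 15.3% of all transcripts higher in pool 2. In pool 3 it averaged 10.33 ± 0.37 with puromycin and 12.49 ± 0.02 with cycloheximide (SD, n = 2 each), a change of -2.16 (limma, adjusted p = 0.120, and 0.0370 with the block). limma called 26.2% of all transcripts lower in pool 3. Both changes also passed without the block where each pool was fitted alone (limma, adjusted p = 9.04e-05 in pool 2 and 2.16e-05 in pool 3). In that fit of pool 2 both mRNAs had the same standard error of 0.593. The change of mio in pool 2 passed with arrays centred (limma, adjusted p = 0.0463), and it was 3.69 without puromycin replicate 1.

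The pool means of Wdr24 differed between the drugs in the same directions. In pool 1 it averaged 14.84 ± 0.03 with puromycin and 13.33 ± 1.45 with cycloheximide (SD, n = 2 each), a rise of 1.51 (limma, adjusted p = 0.0451), against a median of all transcripts of 1.27. Fitting pool 1 alone lost the call (limma, adjusted p = 0.235). Leaving out either puromycin gradient lost it too, and so did leaving out cycloheximide replicate 1, where the change was 0.48. In pool 4 it averaged 11.25 ± 0.12 with puromycin and 12.59 ± 0.02 with cycloheximide (SD, n = 2 each), a change of -1.34 (limma, adjusted p = 0.0311), against a median of -2.52. With each array centred on its median it was 1.00 higher with puromycin in pool 4 (limma, adjusted p = 0.0854), and leaving out any 1 of the 4 gradients lost the call. The changes were 0.58 in pool 2 and -0.70 in pool 3 (limma, adjusted p = 0.424 and 0.394). Both mRNAs had puromycin and cycloheximide gradients that did not overlap in any pool, as was so for 71.8% of all transcripts as higher in pool 1, 59.9% as higher in pool 2, 68.6% as lower in pool 3 and 98.3% as lower in pool 4.

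The ratio of pool 4 to pool 3 was lower with puromycin for both mRNAs but passed for neither with all 4 gradients. For mio it was -2.08 and -0.68 with puromycin and 0.38 and 0.03 with cycloheximide, a change of -1.59 (limma, adjusted p = 0.0776). For Wdr24 it was -0.72 and -0.45 with puromycin and 0.07 and 0.05 with cycloheximide, a change of -0.64 (limma, adjusted p = 0.102). The drugs did not overlap for either mRNA. Without puromycin replicate 1 the change of mio was -0.89. Without puromycin replicate 2 it was -2.28 for mio and -0.78 for Wdr24. These fits left 1 puromycin gradient, so no spread between puromycin gradients entered them. limma called 52% of all transcripts lower, and in 81.6% the drugs did not overlap in that direction. The signal summed over the 4 pools changed by -0.38 for mio and by 0.57 for Wdr24 (limma, adjusted p = 0.999 for each), and limma called 0% of transcripts for it, while before adjustment 86 passed 0.05 as higher and 10 as lower.

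Across the 4 groups, the mean TI of mio was highest with cycloheximide, followed by wild type, smaug mutants and puromycin. The values of the 3 groups without puromycin overlapped between each pair of neighbours, and both puromycin values lay below all the rest. For Wdr24 the order was smaug mutants, cycloheximide, wild type and puromycin, again with overlap between neighbours except for puromycin. The cycloheximide lysates were made in another buffer and incubated, so they were not tested against the smaug mutant gradients of the genotype comparison. Those had cycloheximide in their lysis buffer as well, per the methods of the study.

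How alike the patterns of the 2 mRNAs were was described by correlating their levels over the 40 arrays, each centred on its median. mio and Wdr24 had a Pearson r of -0.29, and Wdr24 ranked 4606 of the other 6523 transcripts by likeness to mio, while mio ranked 5599 by likeness to Wdr24. The transcript most like mio was FBtr0080276 (r = 0.91), and 94 transcripts had an r above 0.8 with mio. The transcript most like Wdr24 was FBtr0073005 (r = 0.79). The gene table gave no name for either. The 40 points share 4 pools and 10 gradients, and they are not independent.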

How the data were processed

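RNA from 4 pools of 10 polysome gradients was hybridised to 40 custom NimbleGen arrays, each read in 1 colour, Cy3 or Cy5, which never changed within a gradient. The deposited values are log2 levels, 1 per transcript and array. The authors normalised them with the quantile step of RMA and then scaled each array linearly on Arabidopsis RNA added to every pool. The log base was taken as 2 because RMA gives log2 values. An error in the added RNA of 1 pool moves every transcript of that array together where it alters only the offset of this scaling. Where it alters the slope, high and low levels move by different amounts. The aligner, build and probe sequences are not given in the sources used here. No filter was applied to the 6524 transcripts, of whose values 1 was at or below 0, and no pair of arrays was identical. The number of arrays limits the precision.

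Gene names were matched by transcript accession in the RefSeq gene table (Release 6 plus ISO1 MT), without use of its coordinates. The transcripts named are mio and Wdr24 and, for each, the 1 transcript most like it. mio and Wdr24 were chosen by identifier, and the transcripts most like them by correlation in these data. The choice of genes and gene lists was made with earlier results of these data known.

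The TI, the ratio of pool 4 to pool 3 and the log2 of the summed linear levels entered limma 3.58.1 under R 4.3.3 as 1 value per gradient and were fitted with lmFit and eBayes. Levels entered 1 model of group and pool, with a spread common to the 4 pools. It had no term for the gradient, so the pools of 1 gradient counted as independent arrays. P-values were adjusted over all transcripts by the Benjamini-Hochberg method with a threshold of 0.05. Standard errors are those of limma, which draws each spread toward a common value. In some alternatives it did so fully, and both mRNAs then had the same standard error. Single values were compared by exact permutation in scipy 1.17.1 under Python 3.11.15. Puromycin and cycloheximide gradients of the same number came from 1 lysate per the methods of the study, and their deviations from the group means correlated (r = 0.46 over all transcripts). Alternatives were centred or quantile-normalised arrays, other definitions of the TI, dye or replicate as a term, a filter on low levels, fits without each replicate, and SAM, which the study itself used. SAM was rewritten from its definition with all 20 label arrangements and a false discovery rate under 5%. The fits were also run on simulated data with noise independent between transcripts and arrays, which does not cover offsets shared by a whole array.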

Additional observations from a re-analysis of the deposited data

Results flagged for a closer look

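The TI of mio differed between the drugs by -7.23, below 0 in both puromycin gradients and above 0 in both cycloheximide gradients (limma, adjusted p = 0.00173). The TI of Wdr24 differed by -2.53 (limma, adjusted p = 0.0261), below 0 in both puromycin gradients and in 1 of the 2 cycloheximide gradients. A test of the difference was past its threshold in both cases, as it was for 80.3% of all transcripts.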

How the results depend on the processing

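Between genotypes, neither mRNA was called for any quantity under any of the alternatives run. The TI change of Wdr24 stayed above 0 in all 18, between 1.02 and 2.94, and that of mio turned to 0.38 with pool 3 alone over pool 1. Without 1 replicate the TI change of mio lay between -1.72 and 0.95, the highest without smaug mutant replicate 2. The planned filter on low levels removed mio and gave it no value. The number of transcripts called for the TI between genotypes was 4, and it was 0 with gradients centred (before adjustment 571 passed 0.05 as higher and 327 as lower), 0 with arrays quantile-normalised within pools (585 and 389) and 0 with all 10 gradients in 1 fit (750 and 26). It was 382 with pool 3 alone, 2 with pool 4 alone, 20 with the arithmetic mean of pools 3 and 4, 54 with pools 1 and 2 in the denominator, 10 with trend and robust in eBayes, 48 without the 25% of transcripts of lowest level, 212 with SAM and between 0 and 130 without 1 replicate. The methods of the study describe no shared lysate for same-numbered genotype gradients. Their deviations correlated at 0.26, 0.45 and -0.05 in replicates 1, 2 and 3, and whether they share more than a number was not tested. With the replicate number as a block, 135 transcripts were called and neither mRNA was (TI change of -0.31 for mio and 2.10 for Wdr24, limma adjusted p = 0.961 and 0.308).

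Small level changes between genotypes changed sign. With arrays centred, the pool 2 change was -0.063 for mio and -0.0023 for Wdr24, and the pool 4 change of Wdr24 was 0.38. With dye as a term, the change of mio was -0.15 in pool 2 and -0.068 in the summed signal. Without 1 replicate, the pool 1 change of mio lay between -0.95 and 1.23 and its pool 2 change between -0.83 and 0.84. That of Wdr24 lay between -0.43 and 0.53 in pool 2 and between -0.60 and 0.10 in pool 4. The summed signal changed by -0.17 to 0.54 for mio and by -0.26 to 0.51 for Wdr24.

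Between drugs, the TI of mio was called lower under all 14 alternatives, between -8.70 and -3.68 (limma, adjusted p = 4.48e-23 to 0.0402). The lowest p came with pools 1 and 2 in the denominator. There limma gave both mRNAs the same standard error of 0.587, so that p does not measure the spread of mio itself. The TI change of Wdr24 was 0.50 with gradients centred, 0.69 with arrays quantile-normalised (limma, adjusted p = 0.342), -2.21 with pool 3 alone (limma, adjusted p = 0.0719), -2.53 with all 10 gradients in 1 fit (limma, adjusted p = 0.0755), and -3.53 to -1.52 without 1 replicate. The count of 5241 called transcripts was 650 with gradients centred, 1156 with arrays quantile-normalised, 3101 with pool 3 alone, and between 2496 and 6078 without 1 replicate. With arrays centred, the change of mio was 1.90 in pool 2, now past the threshold, and -1.41 in pool 4, no longer past it, and that of Wdr24 was 0.14 at the top. Still with arrays centred, Wdr24 changed by -0.25 in pool 2, by 0.19 in pool 3, by 1.00 in pool 4, and by 0.87 in the ratio of pool 4 to pool 3 (gradients centred). With each pool fitted alone, the changes of 4.28 for mio and 1.51 for Wdr24 in pool 1 were lost (limma, adjusted p = 0.109 and 0.235), and those of 2.72 for mio in pool 2, -2.16 for mio in pool 3 and -0.70 for Wdr24 in pool 3 passed. The block by lysate called the pool 2 change of 2.72 and the pool 3 change of -2.16 of mio and altered no other call of either mRNA. Without 1 replicate, the change of mio lay between 2.91 and 5.65 in pool 1, 1.75 and 3.69 in pool 2, -2.28 and -0.89 in the ratio of pool 4 to pool 3, and -1.32 and 0.55 in the summed signal. That of Wdr24 lay between 0.48 and 2.54 in pool 1, -1.43 and -1.25 in pool 4, and -0.78 and -0.51 in the ratio. The ratio gained a call for mio without either puromycin replicate and for Wdr24 without puromycin replicate 2. The pool 2 change of mio gained one without puromycin replicate 1. Each of these fits left 1 puromycin gradient, so the calls do not take in the spread between puromycin gradients. Where only 1 gradient of a group remained, it was taken to vary like the others. The cause of these changes was not tested. Each drug had 2 gradients, and for both mRNAs the limma standard error of the TI change was smaller than their own spread gives.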
